A study of Mus musculus with 36 samples.

Results

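Rod photoreceptors of 5-day-old mice (P5) were compared with mouse embryonic fibroblasts (MEF) across all genes of one RNA sequencing table. The comparison used 6 of the 36 samples listed for the series, 3 libraries of P5 rods and 3 of MEF, and the libraries were taken by their labels alone, not by any measured value. Both groups carried the same genotype, strain Nrl-GFP, in which the promoter of Nrl drives green fluorescent protein. The MEF were at passage 2 and were grown in IMR90 medium, and the rods were isolated at postnatal day 5. Neither group stood under the chemical treatment that the series applied to fibroblasts, as far as the group labels say. The labels give a single protocol text for all samples, in which cells were sorted by the promoter reporter and 80 ng of total RNA entered each sample, so whether the MEF passed such a sort is not clear from it. Nothing in them says whether the 3 libraries of a group are of different cultures or animals, and every p-value thus measures the spread between these libraries, which may be technical. MEF are a mixed primary culture, and the labels give neither the sex nor the embryonic age of their donors.

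Rods are the photoreceptors of dim light. Nrl and Crx, which act with Nr2e3, Otx2 and Neurod1, switch on the genes of phototransduction, of the outer segment, a modified cilium packed with discs, and of the ribbon synapse. At P5 mouse rods have left the cell cycle but have not yet built full outer segments. Fibroblasts are connective tissue cells that secrete collagens and other matrix proteins, pull on them through integrins and actin fibres, and divide in culture. In the series, fibroblasts are the starting cells of a chemical conversion toward photoreceptor-like cells, and rods are a reference.

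The values are the authors' normalized CPM, read abundances that they scaled between libraries, and differences are given in log2 units of CPM + 1, P5 rods minus MEF, with their standard error (SE). A difference of 1 is a 2-fold change on that scale, and adding 1 CPM shrinks the differences of genes near 0. CPM is not divided by transcript length, so levels are compared between groups and not between genes. The summed CPM of a library was 1027767 to 1030192 in MEF and 749719 to 751595 in P5 rods, the number of genes at 1 CPM or more was 12912 to 12925 and 12702 to 12747, and the depth behind the values is unknown. Across genes, 2 MEF libraries correlated at 0.996 to 0.9967, 2 P5 rod libraries at 0.9961 to 0.9971, and an MEF with a P5 rod library at 0.6175 to 0.6203. In bulk samples, fewer cells of a type and less RNA per cell cannot be told apart.

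Of 14085 genes tested, 3449 were called higher in P5 rods (24.5%) and 4295 lower (30.5%), 55.0% in all, at an adjusted p under 0.05 and a difference of at least 1. A further 5041 genes passed the p but not the size, and 1300 did not pass the p. In 91.0% of genes the 3 libraries of one group lay wholly above the 3 of the other, and so most genes, named or not, pass such a count. The median difference was -0.09, the 25th and 75th percentiles were -1.33 and 0.97, and the tail toward MEF was longer. By over 5 log2 units, 222 genes were higher and 378 lower in P5 rods, as the scatter of all genes shows. At the other end, 2031 genes (14.4%) had a 95% confidence interval within 0.5 of no difference. The authors' scaling leaves the groups with different sums, and when every library was set to the same sum differences shifted toward the rods and their median rose by 0.44 to 0.35. The calls were then 4749 higher and 3409 lower, so 58.2% of calls were higher, against 44.5% on the deposited values. Where this common sum began or ended the call of a named gene, or moved the count of a list by over 1.5 times, it is given beside that gene or list.

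**Figure D1:**
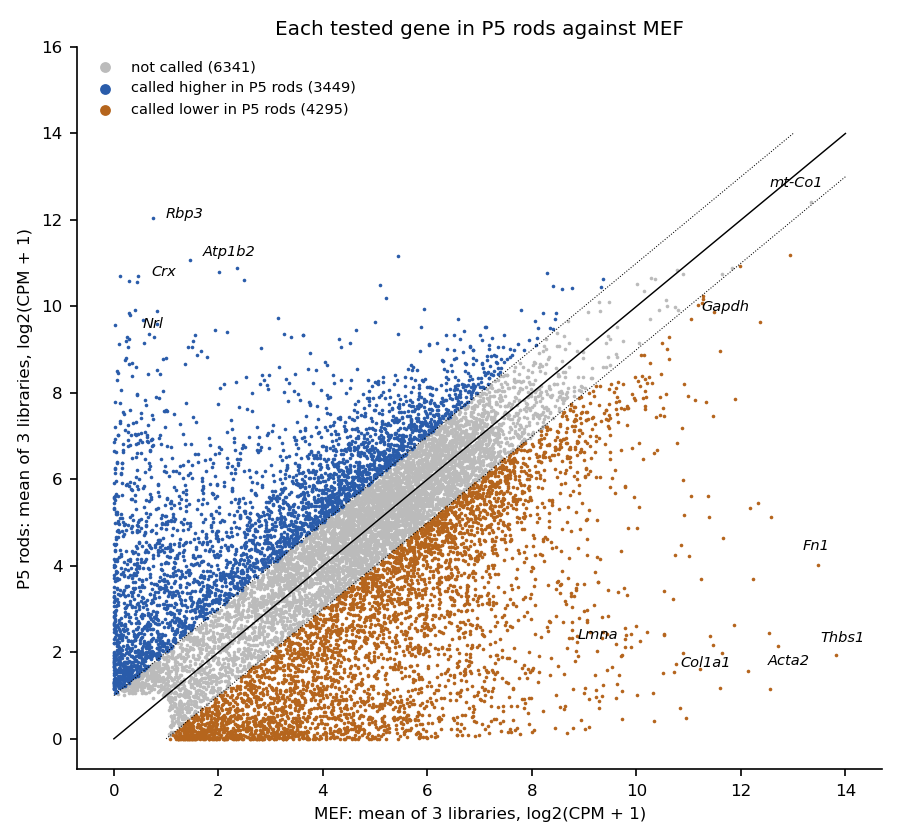
Mean log2(CPM + 1) of each of 14085 tested genes over 3 MEF libraries (horizontal axis) and over 3 P5 rod libraries (vertical axis), with genes called higher in P5 rods in blue, lower in brown and not called in grey; the solid line marks equal levels and the dotted lines a difference of 1. Rbp3, Crx and Nrl lie at the top left, and Thbs1, Acta2, Col1a1 and Fn1 at the bottom right.

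Both labels were checked against defining markers, and the plot of marker sums shows them for every library. The 6 rod markers together were at 0.994 to 2.23 CPM in MEF and at 2399.9 to 2552 CPM in P5 rods, and all 6 were called higher. The 9 fibroblast markers went the other way, from 8533 to 10126 CPM in MEF to 14.2 to 16.2 CPM in P5 rods, with all 9 called lower. Each group held the markers of its label and little of those of the other. The rods were not free of markers of other retinal cells. Of the 6 bipolar cell markers 5 were called higher, and together they summed to 461 to 476 CPM in P5 rods and 73.6 to 81.1 CPM in MEF, against 109 to 116 CPM in P4 rods and 138 to 235 CPM in P6 rods, libraries that the labels trace to samples of an older series; age and series cannot be told apart, so those levels are given without a test. Grm6, through which ON bipolar cells sense glutamate, was at 214, 214 and 218 CPM in the P5 rods, at 0.755 to 2.16 CPM in the P4 rods and at 20.8 to 24.4 CPM in the P6 rods. The rod markers summed to 3342 to 3546 CPM in the P4 and 6034 to 6494 CPM in the P6 rods, above their sums in the P5 rods. Of the 6 cone markers 4 were tested and all 4 were called higher, and the list summed to 36.5 to 38.3 CPM in P5 rods, with the cone arrestin Arr3 at a mean of 1.03 CPM and the opsin Opn1mw listed at 0 in all 3 libraries. The cone list summed to 204 to 264 CPM in the P4 and 208 to 305 CPM in the P6 rods. Amacrine, horizontal and ganglion cell markers reached 223 to 229.7 CPM, with 2 of 6 tested members higher and 2 lower. Müller glia markers were at 160.0 to 177 CPM against 187 to 213 CPM in MEF, with 4 of 5 tested members higher and Apoe lower. In the P4 and P6 rods the Müller glia list summed to 597 to 653 and 497 to 787 CPM. Pigment epithelium markers stayed at 0.815 to 1.41 CPM and macrophage markers at 2.03 to 2.32 CPM. The MEF libraries held transcripts of other cell types too, with macrophage and microglia markers at 202 to 222 CPM, skeletal muscle markers at 252 to 289 CPM and epithelium markers at 57.0 to 60.8 CPM, and all tested members of these lists (7, 5 and 3) were called lower in P5 rods. The part of these other cells in the differences below was not tested.

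**Figure D2:**
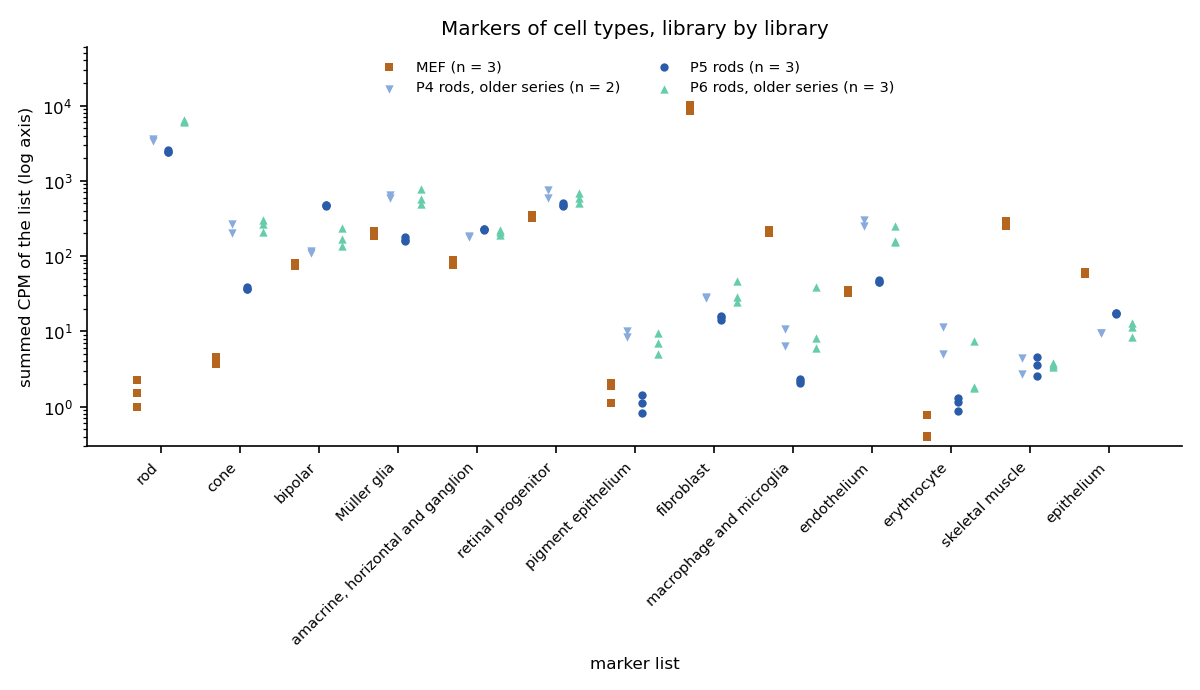
Summed CPM (vertical log axis) of each marker list (horizontal axis) in every library, with squares for MEF, circles for P5 rods, and triangles for the P4 and P6 rods of the older series. The rod list parts all rods from MEF, the fibroblast list parts MEF from all rods, and the bipolar list lies at 461 to 476 CPM in the P5 rods, above every other library shown.

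Crx and its relative Otx2 are homeodomain proteins known to bind the letters TAATCC, and serum response factor (SRF), which drives genes of the contractile apparatus, binds a longer element called the CArG box. Promoters with these elements are shown here because photoreceptor genes and contractile genes stood at opposite ends of the comparison. The 200 bases before the start site are given 5′ to 3′ on the strand of the gene, from RefSeq on GRCm38.p6, with every match in capitals. Matches were sought on both strands, so the letters GGATTA are TAATCC read on the other strand. In the promoters of the photoreceptor genes Rbp3, Sag, Crx and Samd7 the matches begin at -69, -87, -94 and -139 bases from the start, and Crx has a further match at -21:

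Rbp3 (chr14:33953803-33954002, plus strand): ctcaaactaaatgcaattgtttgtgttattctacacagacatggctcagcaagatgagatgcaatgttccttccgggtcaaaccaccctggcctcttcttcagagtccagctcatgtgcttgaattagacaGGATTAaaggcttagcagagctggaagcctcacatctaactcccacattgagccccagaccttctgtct
Sag (chr1:87803480-87803679, plus strand): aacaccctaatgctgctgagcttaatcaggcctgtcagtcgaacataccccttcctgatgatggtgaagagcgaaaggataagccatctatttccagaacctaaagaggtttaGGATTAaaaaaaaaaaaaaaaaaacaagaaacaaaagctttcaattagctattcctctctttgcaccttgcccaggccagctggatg
Crx (chr7:15879956-15880155, minus strand): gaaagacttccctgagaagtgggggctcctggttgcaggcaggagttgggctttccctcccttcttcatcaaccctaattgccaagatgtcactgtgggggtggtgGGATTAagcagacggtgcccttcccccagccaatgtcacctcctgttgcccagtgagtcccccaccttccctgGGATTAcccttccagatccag
Samd7 (chr3:30746093-30746292, plus strand): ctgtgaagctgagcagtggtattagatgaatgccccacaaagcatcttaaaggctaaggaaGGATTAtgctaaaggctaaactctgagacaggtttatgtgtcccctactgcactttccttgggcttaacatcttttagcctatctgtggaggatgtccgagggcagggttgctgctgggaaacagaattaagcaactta

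The LIM protein Fhl2 has a CArG box at a further start site too (chr1:43196762-43196961, minus strand), at -96 bases, which is not printed. The actin-binding protein Cnn2, Fhl2 at the start site shown and the myosin light chain Myl9 carry a CArG box that begins at -56, -31 and -161 bases from the start:

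Cnn2 (chr10:79988400-79988599, plus strand): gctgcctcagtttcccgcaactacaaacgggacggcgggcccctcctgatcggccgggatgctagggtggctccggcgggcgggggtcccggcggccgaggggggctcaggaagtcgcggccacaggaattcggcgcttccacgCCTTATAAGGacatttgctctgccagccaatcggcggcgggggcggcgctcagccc
Fhl2 (chr1:43163962-43164161, minus strand): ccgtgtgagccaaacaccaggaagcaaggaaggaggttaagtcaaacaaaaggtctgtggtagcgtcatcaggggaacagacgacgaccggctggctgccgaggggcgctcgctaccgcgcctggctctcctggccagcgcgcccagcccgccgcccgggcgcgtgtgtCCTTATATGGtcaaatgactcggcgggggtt
Myl9 (chr2:156775264-156775463, plus strand): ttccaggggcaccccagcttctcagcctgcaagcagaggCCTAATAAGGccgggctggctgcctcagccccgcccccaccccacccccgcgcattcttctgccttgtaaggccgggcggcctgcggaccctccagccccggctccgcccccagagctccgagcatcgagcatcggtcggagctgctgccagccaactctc

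Across all 13793 promoter windows of tested genes (250 bases before to 50 after the start, 10749 genes), 5.81% held TAATCC. The share was 7.40% among genes called higher in P5 rods, 11.2% among those higher by over 3 log2 units and 17.9% among those higher by over 5. Among genes called lower it was 4.85%, and 3.34% among those lower by over 5. Of the 49 genes with a window in the rod factor, phototransduction and outer segment lists described below, 19 had a match, in 29.7% of 64 windows. TGCTGA, the core of the element that Nrl and other Maf proteins bind, was in 15.7% of all windows, 26.3% of those of genes higher by over 5 and 16.7% of those of genes lower by over 5. It was in 16 of the 64 windows of the rod factor, phototransduction and outer segment lists and in 11 of 38 windows (28.9%) of the contractile list, so the share was no lower in that fibroblast list. The CArG box was in 1.32% of all windows, 0.398% of those of genes higher by over 5 and 4.74% of those of genes lower by over 5, and in 7 of 38 windows (18.4%) of the contractile list. These 7 windows belong to 6 genes, as Fhl2 was counted at both of its start sites with a match. CCGGAAG, bound by ETS factors, was in 15.7% of all windows, but in 4.38% of those higher by over 5 and 3.90% of those lower by over 5. The median GC content of windows was 60.7% for all tested genes. It was 56.7% for genes higher by over 5 and 59.7% for those lower by over 5. It was lowest of all sets compared, under 56.7%, in the 64 windows of the rod factor, phototransduction and outer segment lists. In the 38 windows of the contractile list it was above 60.7%. The part of GC content in these shares was not tested. A match is a run of letters and not a shown binding site.

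The largest rises were of genes of photoreceptors and their synapses, and they started from near 0 in fibroblasts. Rbp3 (chromosome 14, 33954003 to 33964216, plus strand, GENCODE M21 on GRCm38, as for the other genes located below), which carries retinoids between photoreceptors and pigment epithelium, was at 0.694, 0.428 and 0.964 CPM in the 3 MEF libraries and 4082, 4215 and 4405 CPM in the 3 P5 rod libraries. Pdc (chromosome 1, 150319417 to 150333906, plus strand), phosducin, which binds transducin's βγ subunits, was at 1688, 1689 and 1650.3 CPM in P5 rods against 0.152, 0 and 0.108 CPM in MEF. Prph2 (chromosome 17, 46910459 to 46924933, plus strand), peripherin of the disc rim, was at 1459.9, 1558 and 1636 CPM in P5 rods against 0.332, 0.230 and 0.121 CPM in MEF. No MEF library reached 1 CPM for these 3 genes, and the P5 rod libraries lay close together. Their differences were 11.30 ± 0.10 for Rbp3 (SE, adjusted p = 6.10e-13), 10.59 ± 0.065 for Pdc (adjusted p = 1.56e-13) and 10.31 ± 0.077 for Prph2 (adjusted p = 2.53e-13). Next came Crx (10.23 ± 0.096), Rp1 of the axoneme (10.13 ± 0.076), the sodium pump subunit Atp1b2 (9.63 ± 0.13), the rod repressor Samd7 (9.56 ± 0.10), Pde6b (9.54 ± 0.060), Gnb3 (9.52 ± 0.071), Nrl (9.50 ± 0.065), Slc17a7 (9.12 ± 0.13) and Syp (9.06 ± 0.12).

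Among the largest falls were those of matrix, contractile and signalling proteins of fibroblasts. Thbs1 (chromosome 2, 118111876 to 118127133, plus strand), the matrix protein thrombospondin 1, was at 14170.1, 14609 and 14419 CPM in the 3 MEF libraries and 2.61, 2.85 and 2.97 CPM in the 3 P5 rod libraries. Acta2, smooth muscle actin, was at 6703, 6782 and 6737 CPM in MEF against 2.75, 3.83 and 3.91 CPM in P5 rods. Col1a1, which encodes a type I collagen chain (chromosome 11, 94936224 to 94953042, plus strand), was at 3894, 4608 and 5132 CPM in MEF against 2.13, 1.68 and 2.03 CPM in P5 rods. For all 3 genes the lowest MEF library was far above every rod library. The differences were -11.88 ± 0.045 for Thbs1 (adjusted p = 2.11e-14), -10.56 ± 0.092 for Acta2 (adjusted p = 5.33e-13) and -10.58 ± 0.099 for Col1a1 (adjusted p = 7.48e-13). Other large falls were those of Bgn (-10.48 ± 0.080), Col5a2 (-10.41 ± 0.13), Tnc (-10.11 ± 0.13), Lox (-10.11 ± 0.068), Gsn (-9.93 ± 0.067), Col1a2 (-9.67 ± 0.15), Ctgf (-9.61 ± 0.047) and Fn1 (-9.47 ± 0.066). Thy1 (chromosome 9, 44043384 to 44048579, plus strand), a surface protein of fibroblasts and of many neurons, was at 4.92 ± 0.844 CPM in P5 rods against 121 ± 4.43 CPM in MEF (mean ± SD, n = 3 each), a difference of -4.37 ± 0.10.

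**Figure D3:**
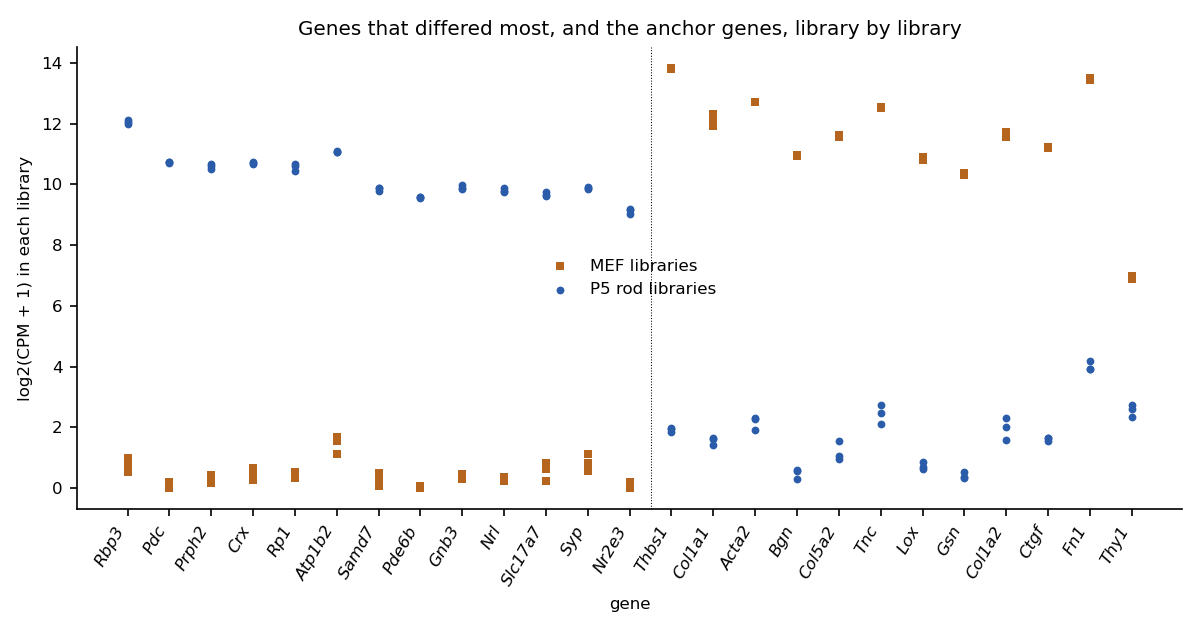
log2(CPM + 1) in each of the 6 libraries (vertical axis) for the 12 genes that rose most and Nr2e3 (left of the dotted line) and 11 of those that fell most and Thy1 (right), with squares for MEF and circles for P5 rods. In every gene shown the 3 libraries of one group lie wholly apart from the 3 of the other.

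The factors that make a rod were almost all higher in P5 rods, and most were close to 0 in MEF. Of 18 tested members, 15 were called higher, 2 lower and 1 not, with a median difference of 6.21 against -0.09 for all tested genes. Nrl (chromosome 14, 55518978 to 55524981, minus strand), which sets rod against cone fate, was at 0.271, 0.170 and 0.270 CPM in the 3 MEF libraries and 864, 886 and 939 CPM in the 3 P5 rod libraries (adjusted p = 1.83e-13). Crx (chromosome 7, 15865947 to 15879968, minus strand) was at 1621, 1658 and 1712 CPM in P5 rods against 0.407, 0.186 and 0.579 CPM in MEF (adjusted p = 7.48e-13), and Nr2e3 (chromosome 9, 59942771 to 59960659, minus strand), which silences cone genes, at 522, 566 and 582 CPM in P5 rods against 0, 0.0800 and 0.136 CPM in MEF (adjusted p = 4.81e-13). In all 3 genes the groups did not overlap and no MEF library reached 1 CPM. Otx2, which acts ahead of Crx, differed by 8.95 ± 0.063, the bHLH factor Neurod1 by 8.80 ± 0.060 and Samd11, a partner of Samd7, by 8.68 ± 0.088. The 2 members called lower were Mef2c (-3.49 ± 0.11), a factor of muscle and neurons, and Ikzf1 (-1.77 ± 0.13), a factor of blood and early retinal progenitors that was at a mean of 2.84 CPM in MEF. Nrl was at 780.2 to 972 CPM in the P4 and 1229.9 to 1364 CPM in the P6 rods of the older series, and Nr2e3 at 1102 to 1149 and 1491 to 2001 CPM. Neurod1 was at 1636 to 1683 and 1119.6 to 1824 CPM there, against 543, 529 and 541 CPM in the P5 rods.

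Every tested member of the phototransduction list was called higher in P5 rods, 24 of 24, with a median difference of 6.53. The list covers the light-triggered cascade from transducin and phosphodiesterase to the cyclic GMP channel, with its shutoff and calcium feedback. Pde6b, a catalytic subunit of the rod phosphodiesterase, was at 765, 745 and 759 CPM in P5 rods against 0.0428, 0 and 0 CPM in MEF (adjusted p = 1.58e-13). Cngb1, a subunit of the rod channel, rose by 8.97 ± 0.10, Pde6g, the inhibitory phosphodiesterase subunit, by 8.03 ± 0.093, Rcvrn, recoverin, by 7.94 ± 0.085 and Sag, rod arrestin, by 7.79 ± 0.12. The rod transducin subunit Gnat1 was at 20.3, 20.7 and 20.9 CPM in P5 rods against 0.765, 1.00 and 0.478 CPM in MEF. It was lower than in the P6 rods of the older series, where Gnat1 was at 36.2 to 55.2 CPM. The gene was thus on at P5, and for its level under that of the P6 rods age and series cannot be told apart. Gnb1, a G protein β subunit used in many tissues, was at 1576 ± 16.4 CPM in P5 rods against 658 ± 9.68 CPM in MEF and differed by 1.26 ± 0.032.

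Genes of the outer segment and its discs rose as a group, with 18 of 19 tested members called higher, 0 lower and a median difference of 7.30. Beside Rbp3, Prph2 and Rp1, the list was led by Impg2 of the matrix between photoreceptors (8.77 ± 0.13), the transport protein Tulp1 (8.58 ± 0.083) and the ciliary kinase Mak (8.55 ± 0.069). Mak was at 439, 430.0 and 424 CPM in P5 rods against 0.176, 0.197 and 0.0882 CPM in MEF. The member that was not called, Arl3, a small GTPase that delivers lipid-modified proteins to the cilium, was at 59.0 ± 1.77 CPM in P5 rods against 31.2 ± 1.65 CPM in MEF and differed by 0.90 ± 0.060, but was called higher at the same sum (1.34) and after quantile normalization (1.02).

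Genes of the cilium, from which the outer segment grows, were mostly higher. Of 35 tested members 23 were called higher, 2 lower and 10 not, and the median difference was 2.10. The largest rises were of Rpgrip1 (7.32 ± 0.081), Arl6 (5.45 ± 0.11), Bbs1 (4.66 ± 0.088), Bbs9 (4.28 ± 0.12), Cep290 (4.26 ± 0.070) and Rpgr (4.12 ± 0.10), which belong to the connecting cilium and to the BBSome, the coat that sorts ciliary membrane proteins. Cep290 was at 235, 231 and 213 CPM in P5 rods against 11.9, 10.4 and 10.3 CPM in MEF, with no overlap. The kinesin motor of ciliary transport was not called, with Kif3a at 42.5 ± 3.86 CPM in P5 rods against 36.9 ± 0.696 CPM in MEF (0.20 ± 0.072) and Kif3b at 105 ± 1.42 CPM in P5 rods against 82.3 ± 3.39 CPM in MEF (0.35 ± 0.048). Called lower were Rp2 (-1.44 ± 0.076), which activates the hydrolysis of GTP by Arl3, and Ift46 (-1.06 ± 0.074), a subunit of the transport train, and both calls rest on settings: Rp2 with the P4 and P6 rods (-0.25) and Ift46 at the same sum (-0.61) were not called.

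At the ribbon synapse, the specialised terminal through which photoreceptors release glutamate without pause, 27 of 28 tested entries were called higher and 0 lower, with a median difference of 4.66 (Rab3a stands in the table under 2 identifiers and was counted at each). Slc17a7, the transporter that fills vesicles with glutamate, was at 783, 809 and 863 CPM in P5 rods against 0.539, 0.776 and 0.175 CPM in MEF (adjusted p = 8.11e-12). Syp, synaptophysin of the vesicle membrane, was at 925, 949.8 and 969 CPM in P5 rods against 0.757, 1.17 and 0.471 CPM in MEF (adjusted p = 4.86e-12). Snap25, a fusion protein of the terminal membrane, rose by 9.03 ± 0.064, the adhesion protein Lrit1 by 8.45 ± 0.077, the calcium channel subunit Cacna2d4 by 8.38 ± 0.078 and the complexin Cplx3 by 8.35 ± 0.14. The 1 entry not called was Rims1, at 2.22 ± 0.347 CPM in P5 rods against 1.04 ± 0.271 CPM in MEF. Bipolar cells also use several of these genes, and their markers were higher in the same libraries, as given above.

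Transmitter and channel genes rose more often than they fell. Of 29 tested glutamate and GABA genes, 25 were called higher and 2 lower, with a median of 2.39. Slc1a2, a glutamate uptake transporter, was at 596, 597 and 569.9 CPM in P5 rods against 1.58, 1.60 and 2.49 CPM in MEF, and Slc1a7, the photoreceptor glutamate transporter, rose by 5.98 ± 0.097. Grm6 rose by 7.64 ± 0.081, and the GABA receptor subunit Gabrr1 by 5.35 ± 0.087. Grm6 is a gene of bipolar cells and Gabrr1 is best known from them, and the bipolar marker sums of these libraries are given above. Against the list went Gria3, an AMPA receptor subunit, at 2.90 ± 0.425 CPM in P5 rods against 112 ± 3.50 CPM in MEF (-4.86 ± 0.089), and Grin2d (-1.05 ± 0.099). The call of Grin2d was lost at the same sum (-0.83), after quantile normalization (-0.92), with a pseudocount of 5 (-0.36) and without P5 rod 1 (-0.98). Of 34 tested channel genes, 18 were called higher and 5 lower, with a median of 1.34. Ano2, a calcium-activated chloride channel, was at 128, 137 and 124 CPM in P5 rods against 1.06, 0.394 and 1.23 CPM in MEF (6.14 ± 0.16), with no overlap. The sodium channel Scn8a rose by 5.95 ± 0.19 and the membrane protein Ttyh1 by 5.92 ± 0.12. Among those called lower were the stretch-gated channel Piezo1, at 5.63 ± 1.21 CPM in P5 rods against 385 ± 4.21 CPM in MEF (-5.88 ± 0.12), Kcnk2 (-3.27 ± 0.096), Cacna1c (-2.64 ± 0.094) and Kcnk1 (-2.08 ± 0.096).

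Genes shared by neurons in general moved in both directions. Of 25 tested cytoskeleton and growth genes 13 were called higher, 3 lower and 9 not (median 1.39). Dpysl5 (4.98 ± 0.096), Stmn3 (4.74 ± 0.098), the neurofilament subunits Nefh (4.50 ± 0.091) and Ina (4.33 ± 0.088), tau (Mapt, 4.36 ± 0.15) and Map2 (4.21 ± 0.066) rose most. Gap43, a growth cone protein, was at 12.8 ± 0.619 CPM in P5 rods against 47.6 ± 0.375 CPM in MEF, and it was called lower with Stmn2 (-1.69 ± 0.085) and Map1a (-1.67 ± 0.10). Tubb3, the tubulin used as a marker of neurons, was at 79.5 ± 10.0 CPM in P5 rods against 67.1 ± 3.16 CPM in MEF and was not called (0.23 ± 0.086). Among 30 tested splicing and RNA-binding genes 13 were called higher and 7 lower (median 0.73). The splicing factor Srrm4, which includes neuronal microexons, was at 342, 349.9 and 336 CPM in P5 rods against 5.52, 6.23 and 6.61 CPM in MEF, and its relative Srrm3 rose by 5.34 ± 0.13. Msi1, the RNA-binding protein Musashi 1, rose by 6.22 ± 0.084 and Celf3 by 6.89 ± 0.16. Rbfox2 fell most, from 252, 254 and 254 CPM in MEF to 13.8, 13.2 and 14.5 CPM in P5 rods (-4.10 ± 0.053). The neuronal members Srrm4, Srrm3 and Celf3 thus moved opposite to Rbfox2. Esrp2 (-2.45 ± 0.12), Ptbp3 (-2.29 ± 0.059), Mbnl2 (-1.85 ± 0.065), Qk (-1.78 ± 0.066), Ptbp1 (-1.24 ± 0.048) and Rbfox1 (-1.04 ± 0.13) were also lower, but Rbfox1 and Qk were at 0.28 and 0.0062 with the P4 and P6 rods, and Ptbp1 and Rbfox1 were not called at the same sum.

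REST is a repressor that keeps neuronal genes silent outside the nervous system. Rest was at 66.9, 58.2 and 58.7 CPM in the 3 MEF libraries and 10.8, 11.1 and 11.0 CPM in the 3 P5 rod libraries, a difference of -2.37 ± 0.072 (adjusted p = 9.53e-10), with no overlap. In the list of REST, its partners and its known neuronal targets, 16 of 24 tested members were called higher and 2 lower (median 1.87). Snap25 led, followed by the granule proteins Chgb (7.78 ± 0.12), Chga (6.39 ± 0.094) and Scg3 (6.23 ± 0.088), the cadherin Celsr3 (6.19 ± 0.14) and the active zone protein Bsn (4.95 ± 0.13). Stmn2 was lower against the list (-1.69 ± 0.085), and the targets Scn2a (0.076 ± 0.15), Vgf (-0.41 ± 0.16) and L1cam (-0.81 ± 0.14) were not called. The BAF complex moves nucleosomes and exchanges subunits as neural progenitors become neurons. Of its 26 tested subunits 10 were called higher, 2 lower and 14 not (median 0.77). Actl6b, the subunit of neurons, was at 28.9, 28.6 and 35.5 CPM in P5 rods against 0.0245, 0.0454 and 0.10 CPM in MEF (4.91 ± 0.11), while its broadly used paralog Actl6a was at 84.0 ± 4.65 CPM in P5 rods against 44.0 ± 1.82 CPM in MEF and not called, though it was called higher at the same sum (1.36) and after quantile normalization (1.03). Dpf3 (3.31 ± 0.11), Smarca2 (2.75 ± 0.064), Bcl7a (2.07 ± 0.066), Smarcd1 (1.75 ± 0.053) and Arid2 (1.72 ± 0.051) were higher, and Ss18 (-1.39 ± 0.046) and Smarcd3 (-1.21 ± 0.11) lower. A pair of PHD-finger subunits did not part on the deposited scale. Its broadly used member (0.85 ± 0.053) and its neuronal member (0.80 ± 0.13) were not called. At the same sum 16 subunits were called higher and 0 lower.

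A list of 30 paralog pairs, in most of which a widely used member comes first and a member better known from neurons or other specialised cells second, was read for members of one pair that moved apart. In 11 pairs the first member was called lower and the second higher, in 1 pair the reverse, in 1 both were higher, in 1 both were lower, in 14 a single member was called and in 2 neither. In these 14 the second member was higher in 8 and lower in 3, and the first was lower in 3. One of the 14 is the creatine kinase pair, in which the muscle form Ckm was under the filter on low values and Ckb (1.62 ± 0.12) was the one member tested. Among all tested genes 24.5% were called higher and 30.5% lower. How often pairs taken from all genes would part in this way was not tested. The β subunits of the sodium pump gave a wide contrast. Atp1b2 was at 2177, 2139.8 and 2151 CPM in P5 rods against 2.22, 1.15 and 1.94 CPM in MEF, while Atp1b1 was at 10.4, 11.0 and 10.0 CPM in P5 rods against 104, 117 and 100.2 CPM in MEF. The differences were 9.63 ± 0.13 and -3.24 ± 0.075, so the members of the pair went opposite ways. In the same way Snap25 (9.03 ± 0.064) was higher and Snap23 (-1.55 ± 0.063) lower, Ap3b2 (6.36 ± 0.11) higher and Ap3b1 (-1.17 ± 0.066) lower, Gnao1 (4.49 ± 0.075) higher and Gnai2 (-3.81 ± 0.058) lower, and Vamp2 (3.22 ± 0.059) higher and Vamp3 (-1.69 ± 0.052) lower. Ptbp2 (2.54 ± 0.095) was higher and Ptbp1 (-1.24 ± 0.048) lower, Synj1 (2.27 ± 0.055) higher and Synj2 (-2.96 ± 0.094) lower, and smaller contrasts were those of Kif5c and Kif5b (1.49 ± 0.12 and -1.44 ± 0.042), and Ss18l1 and Ss18 (1.38 ± 0.079 and -1.39 ± 0.046). Hexokinase was the reversed pair, with Hk1 at 609.6, 655 and 687 CPM in P5 rods against 78.9, 80.1 and 83.1 CPM in MEF and Hk2 at 5.45, 4.87 and 5.02 CPM in P5 rods against 55.2, 60.9 and 59.2 CPM in MEF. Setting the libraries to the same sum ended the calls of Ap3b1, Ptbp1, Kif5b and Ss18, each of which lay between -1.44 and -1.17 on the deposited scale, while their partners were still called higher. With the P4 and P6 rods of the older series, Hk1 (0.47) and Kif5c (0.79) were not called.

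**Figure D4:**
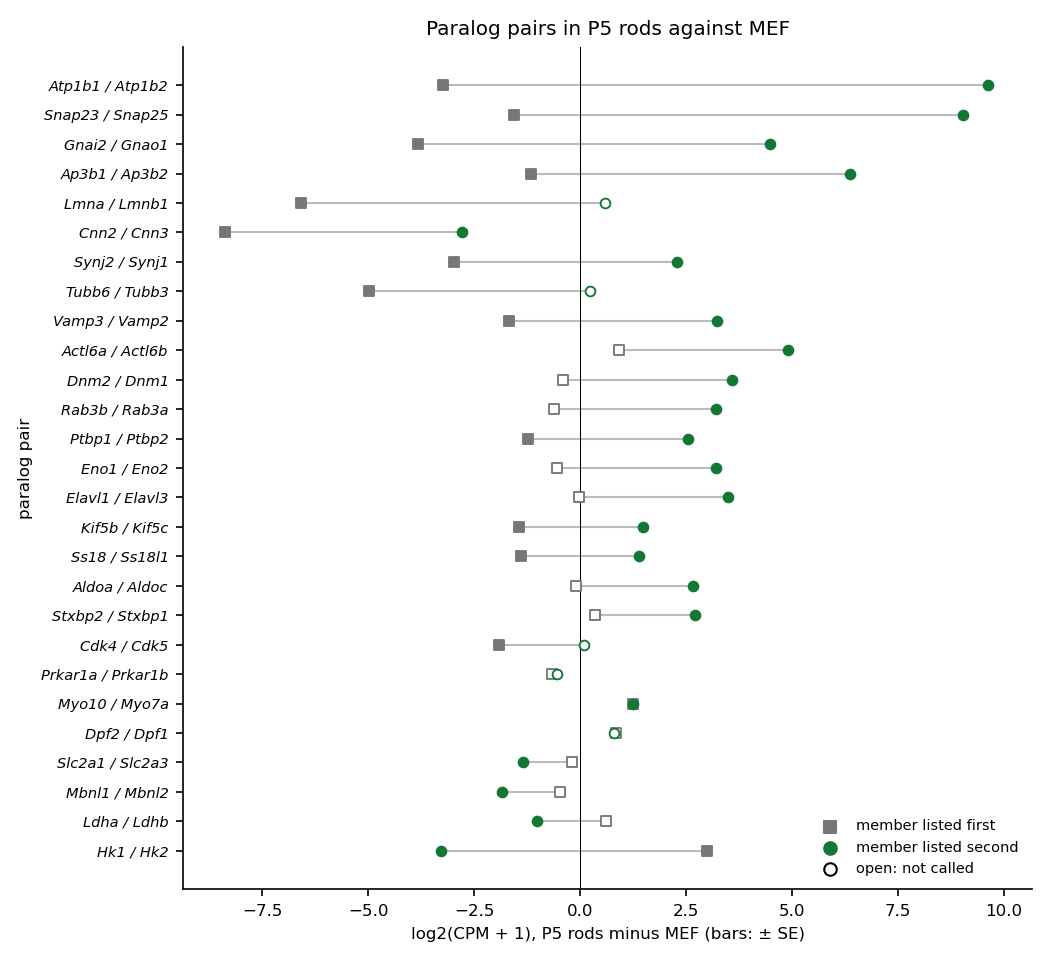
Difference in log2(CPM + 1), P5 rods minus MEF (horizontal axis, bars ± SE), of both members of 27 of the paralog pairs (vertical axis), with grey squares for the member listed first, green circles for the second and open symbols for members not called. Among these, the pairs Atp1b1 / Atp1b2 and Snap23 / Snap25 spread widest across 0, and Hk1 / Hk2 is the pair with the first member called higher and the second lower.

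The nuclear envelope went both ways, with 4 members called higher and 6 lower of 19, near the shares of all tested genes. Those shares, 24.5% higher and 30.5% lower, are also the background for the other lists of this paragraph. The envelope median of -0.016 turned to 0.43 at the same sum, with 9 higher and 5 lower. Lmna, which encodes lamins A and C, was at 364, 412 and 452 CPM in the 3 MEF libraries and 2.68, 3.55 and 3.68 CPM in the 3 P5 rod libraries, a difference of -6.58 ± 0.11 (adjusted p = 1.73e-11). Mouse rods are known for nuclei without lamin A, in which heterochromatin gathers at the centre. Lmnb1, the B-type lamin, was at 62.8 ± 2.20 CPM in P5 rods against 41.5 ± 1.62 CPM in MEF and was not called on the deposited scale, but was at the same sum (1.03). The nuclear pore protein Nup210 rose by 5.04 ± 0.19, Syne4 by 2.48 ± 0.13, Syne2 by 1.86 ± 0.12 and Sun1 by 1.56 ± 0.045, while Tmem43 (-2.53 ± 0.077), emerin (Emd, -1.99 ± 0.065), Syne3 (-1.86 ± 0.097), Sun2 (-1.58 ± 0.088) and Syne1 (-1.20 ± 0.070) were lower. Syne4 and Sun1 were not called with the P4 and P6 rods, nor Syne1 at the same sum. Among Polycomb and histone methylation genes 17 of 28 were called higher and 1 lower (median 1.25). Jarid2, which recruits Polycomb complex 2, was at 371, 369 and 367 CPM in P5 rods against 13.8, 13.7 and 13.3 CPM in MEF (4.66 ± 0.045), and Suv39h2 (3.08 ± 0.086), Phc1 (2.74 ± 0.070), Kmt5c (2.73 ± 0.062) and Cbx7 (2.47 ± 0.19) were higher too, with Rbbp7 lower (-1.52 ± 0.054). Among DNA methylation genes 6 of 14 were higher and 3 lower (median 0.86). All 3 Tet genes, whose enzymes oxidise 5-methylcytosine, were higher, Tet1 by 3.76 ± 0.23, Tet3 by 3.08 ± 0.066 and Tet2 by 2.70 ± 0.063. Uhrf1, which guides maintenance methylation in dividing cells, was at 1.34, 1.60 and 1.99 CPM in P5 rods against 30.4, 31.9 and 33.0 CPM in MEF (-3.64 ± 0.11). Of 21 tested linker, variant histone and high mobility group genes 8 were higher and 4 lower (13 and 4 at the same sum), the largest being Hmgn2 (3.99 ± 0.087) and Hmga2, which was at 2.20, 1.90 and 1.98 CPM in P5 rods against 725, 675 and 681 CPM in MEF (-7.84 ± 0.061).

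On the fibroblast side the matrix led. Of 50 tested matrix proteins and matrix enzymes other than collagens 49 were called lower in P5 rods and 1 higher, with a median of -6.00 against -0.09 for all tested genes, and the summed CPM of the list was 63159 to 65123 CPM in MEF and 1261 to 1348 CPM in P5 rods. Fn1, fibronectin, was at 11142, 11682 and 11535 CPM in MEF against 17.1, 14.2 and 14.3 CPM in P5 rods, and Tnc, tenascin C, at 5840.5, 6059 and 6039.6 against 4.54, 3.26 and 5.71 CPM. Bgn, the proteoglycan biglycan, was at 1977, 1975 and 1989 against 0.467, 0.219 and 0.502 CPM, and Lox, which crosslinks collagen, at 1897, 1778 and 1769.9 against 0.792, 0.540 and 0.611 CPM. No rod library reached 1 CPM for Bgn or Lox. Agrn, agrin, a proteoglycan of basement membranes and synapses, was the single member called higher (1.62 ± 0.044), at 915 ± 34.9 CPM in P5 rods against 297 ± 11.3 CPM in MEF. The collagens were mostly lower, with 30 of 39 tested chains called lower and 7 higher (median -3.19). The fibril-forming chains Col1a1, Col5a2 (-10.41 ± 0.13), Col1a2 (-9.67 ± 0.15), Col5a1 (-8.90 ± 0.078) and Col3a1 (-7.80 ± 0.093) fell most, with the network-forming chain Col8a1 (-8.19 ± 0.056). Those called higher were Col20a1 (2.33 ± 0.083), Col17a1 (2.30 ± 0.28), Col23a1 (2.02 ± 0.11), Col26a1 (1.94 ± 0.11), Col9a1 (1.77 ± 0.12), Col9a3 (1.62 ± 0.11) and Col11a2 (1.21 ± 0.18), and of these only Col20a1 had a mean above 10 CPM in P5 rods, at 34.5 CPM. With the P4 and P6 rods Agrn (-0.35) and Col20a1 (-1.06) lay below MEF, so these rises were not seen with those rods.

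The receptors and fibres that bind and pull the matrix were lower with it. Of 35 tested integrins, matrix receptors and adhesion proteins 30 were called lower and 1 higher (median -3.02). Itgb1, the β1 chain shared by most matrix-binding integrins, was at 5329, 5098 and 5008 CPM in MEF against 43.4, 45.8 and 38.8 CPM in P5 rods (-6.88 ± 0.059). Cd44 (-7.79 ± 0.075), Itga5 (-7.77 ± 0.051), Ddr2 (-6.81 ± 0.20), Itga11 (-6.02 ± 0.12) and Sdc1 (-5.79 ± 0.093) fell as well, and Itgb8 was higher (1.38 ± 0.10), with 2 members called higher at the same sum. Of 36 contractile and actin genes 34 were called lower and 1 higher (median -5.28). Acta2 led with the difference given above. Tagln (-9.22 ± 0.045), Tpm2 (-8.66 ± 0.11), Cnn1 (-8.54 ± 0.075), Cnn2 (-8.37 ± 0.082) and Myl9 (-8.25 ± 0.071) followed; the promoters of Cnn2 and Myl9 are shown above. Srf itself was at 43.6 ± 2.95 CPM in P5 rods against 106 ± 6.80 CPM in MEF and fell by 1.26 ± 0.068, and lay at -0.81, under the threshold, at the same sum. Myocd, the smooth muscle and heart cofactor of SRF, went against the list, at 1.86, 2.95 and 3.16 CPM in the 3 MEF libraries and 30.4, 27.6 and 27.9 CPM in the 3 P5 rod libraries (3.04 ± 0.14). In the P4 and P6 rods of the older series Myocd was at 0.831 to 1.64 and 1.61 to 2.89 CPM, below or within the range of MEF, so its rise was not seen with those rods. Of 14 tested classical cadherins 5 were higher, led by Cdh20 (4.86 ± 0.11), Cdh8 (3.03 ± 0.11) and Cdh4 (2.98 ± 0.088), and 7 lower, led by Cdh3 (-4.96 ± 0.097), Cdh11 (-4.20 ± 0.060) and Cdh6 (-4.00 ± 0.088), while Cdh9 (1.89 ± 0.092) and Cdh22 (1.32 ± 0.11) were also higher. Among all tested genes 24.5% were called higher and 30.5% lower.

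TGF-β and YAP signalling, which respond to injury and to mechanical tension, were represented by 31 tested pathway members and targets, of which 27 were called lower, 0 higher and 4 not (median -4.54). Ctgf (-9.61 ± 0.047), Inhba (-9.25 ± 0.053), Ankrd1 (-7.85 ± 0.069), Axl (-7.39 ± 0.070) and Cyr61 (-7.23 ± 0.12) were among the largest falls. Tgfb2 (-0.71 ± 0.049), the receptor Tgfbr1 (0.094 ± 0.058), Skil (-0.35 ± 0.049) and Tead3 (0.80 ± 0.084) were not called, but at the same sum Tead3 was called higher (1.24). Caveolae, small pits of the cell surface, and the annexins that patch membranes fell in 25 of 26 tested members, with 0 higher (median -5.12). S100a6 was at 1663, 1726 and 1669 CPM in MEF against 1.94, 1.76 and 2.04 CPM in P5 rods (-9.18 ± 0.053), Anxa1 fell by 9.00 ± 0.071, Ptrf fell by 7.95 ± 0.084 and Cav1 fell by 7.72 ± 0.054.

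Transcription factors of mesenchyme were lower in P5 rods in 28 of 34 tested members, with 0 higher and 6 not called (median -3.63). Prrx1, a homeobox factor of limb and face mesenchyme, was at 319, 287 and 287 CPM in MEF against 0.735, 0.436 and 0.503 CPM in P5 rods (-7.59 ± 0.090). Nfatc4 (-5.79 ± 0.084), Tbx15 (-5.27 ± 0.085), Twist1 (-4.95 ± 0.091), Runx1 (-4.87 ± 0.090) and Alx4 (-4.84 ± 0.087) followed. Zeb1, Zeb2 and Tcf4 were not called, at differences of -0.57 ± 0.076, -0.24 ± 0.072 and 0.22 ± 0.048. The Hox genes, which set position along the trunk and limbs and are silent in the eye, were called lower in 34 of 34 tested members (median -2.74). Their summed CPM was 248 to 257 CPM in MEF and 2.76 to 3.21 CPM in P5 rods. Hoxb9 was highest in MEF, at 50.6, 53.1 and 53.7 CPM against 0.567, 0.793 and 0.921 CPM in P5 rods, with a difference of -4.93 ± 0.099. Every other tested Hox gene had a mean of at most 14.2 CPM in MEF, the level of Hoxb2, and with a pseudocount of 5 in place of 1 the calls fell to 19 of 34.

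Growth factors and their receptors fell in 34 of 47 tested members and rose in 7 (median -3.29). Igf2, an imprinted fetal growth factor, was at 4609.9, 4746 and 5112 CPM in MEF against 12.5, 10.7 and 12.6 CPM in P5 rods (-8.54 ± 0.065). Igfbp7 (-8.41 ± 0.076), the platelet-derived growth factor receptor Pdgfrb (-7.46 ± 0.080), Hbegf (-7.02 ± 0.071) and Egfr (-6.33 ± 0.081) were also lower. Those higher were Lifr, the receptor of leukemia inhibitory factor (3.43 ± 0.081), Ntrk2 (2.07 ± 0.099), Kit (1.63 ± 0.23), Vegfa (1.54 ± 0.045), Fgf2 (1.23 ± 0.073), Erbb4 (1.10 ± 0.17) and Insr (1.10 ± 0.098). With the P4 and P6 rods Vegfa lay at -0.12 and Fgf2 at -4.50. Imprinted genes fell in 14 of 26 tested members and rose in 3 (median -1.23). After Igf2 the largest falls were of Slc38a4 (-7.66 ± 0.071), Zim1 (-4.70 ± 0.11), Igf2r (-4.36 ± 0.052), Grb10 (-3.93 ± 0.042) and Osbpl5 (-3.80 ± 0.069), and the members that rose were Ppp1r9a (3.83 ± 0.091), Nnat (1.84 ± 0.064) and Snrpn (1.39 ± 0.059). At the same sum 12 imprinted genes were lower and 8 higher.

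Cell cycle genes were lower in P5 rods in 26 of 33 tested members, with 0 higher and 7 not called (median -2.37). Mki67, a marker of dividing cells, was at 74.4, 80.1 and 77.3 CPM in MEF against 4.25, 5.04 and 4.16 CPM in P5 rods (-3.84 ± 0.082). Rrm2 (-5.28 ± 0.11), Cdk1 (-4.75 ± 0.14), Ccne1 (-4.35 ± 0.11), Top2a (-3.74 ± 0.13) and Birc5 (-3.70 ± 0.097) also fell. The choice of rods mattered here: with the P4 and P6 rods of the older series against the same MEF libraries, 3 members were called higher and 12 lower of 33, and Mki67 was at 202 to 239.9 CPM at P4 and 42.2 to 88.2 CPM at P6. On that basis Mki67 lay at 0.60, Top2a at 0.44 and Ccnd1, below, at -0.096. Among inhibitors, D cyclins and p53 targets 12 of 23 were lower and 4 higher (median -1.03). Ccnd2 was at 1432, 1467 and 1548 CPM in MEF against 4.99, 3.65 and 4.30 CPM in P5 rods (-8.13 ± 0.085), and Cdkn2b (-6.62 ± 0.079), Cdkn2a (-5.75 ± 0.12), Ccnd1 (-3.65 ± 0.049), Ccnd3 (-2.80 ± 0.097) and Cdkn1c (-2.61 ± 0.093) fell too. Cdkn1b, the p27 inhibitor of resting neurons, rose by 1.91 ± 0.063, with Rbl2 (1.15 ± 0.069), Gadd45a (1.14 ± 0.058) and Rb1 (1.02 ± 0.051).

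Eye field, progenitor and neurogenic factors rose in 22 of 36 tested members and fell in 6 (median 1.35), with 5 more under the filter on low values. Otx2 and Neurod1 led, as given above, and Neurod4 (8.25 ± 0.099), Insm1 (6.60 ± 0.080) and Rax (5.06 ± 0.14) rose too. Neurod4, a bHLH factor of retinal neurogenesis, was at 353, 316 and 279 CPM in P5 rods against 0, 0 and 0.115 CPM in MEF, and at 1136 to 1163 CPM in the P4 and 727 to 849.5 CPM in the P6 rods of the older series. The Notch pathway was split, with Notch1 higher (2.21 ± 0.053) and Notch3 (-4.69 ± 0.090), Hes1 (-4.10 ± 0.13), Notch2 (-3.38 ± 0.060) and Jag1 (-3.30 ± 0.053) lower, and Zic1 (-2.25 ± 0.090) and Sfrp2 (-1.71 ± 0.17) lower as well. Hes1 (-0.42) and Zic1 (-0.65) were not called lower with the P4 and P6 rods, and Sfrp2 lay at 0.74. Vitamin A genes, which make the chromophore and retinoic acid, rose in 4 and fell in 8 of 23 tested members (median -0.025, 0.39 at the same sum, with 7 higher and 7 lower), near the shares of all tested genes. Rbp3 and Rdh12 (6.39 ± 0.12), a retinol dehydrogenase of photoreceptors, were the large rises, with Stra6 (1.20 ± 0.13) and Rxrb (1.11 ± 0.093). The retinoic acid synthase Aldh1a2 (-4.80 ± 0.085), its binding protein Crabp2 (-4.15 ± 0.092), the degrading enzyme Cyp26b1 (-3.75 ± 0.097) and the receptor Rarg (-3.53 ± 0.28) fell.

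Energy genes moved in both directions. Of 38 tested glycolysis and lactate genes 9 were called higher, 12 lower and 17 not, close to the shares of all tested genes, and the median of -0.34 turned to 0.10 when libraries were set to the same sum, with 12 higher and 7 lower. Nxnl1 (6.12 ± 0.083) and Nxnl2 (4.71 ± 0.089), which encode the rod-derived cone viability factors, Eno2 (3.20 ± 0.093), Hk1 (2.99 ± 0.051) and Aldoc (2.66 ± 0.12) rose, while Pdk4 (-4.01 ± 0.097), which diverts pyruvate from the mitochondrion, and Hk2 (-3.28 ± 0.076) fell. The widely used isoforms Aldoa, Pkm and Ldha were at 732 ± 57.6 CPM in P5 rods against 787 ± 17.6 CPM in MEF, 1721 ± 79.6 CPM in P5 rods against 1899 ± 38.6 CPM in MEF and 1094 ± 40.5 CPM in P5 rods against 714 ± 8.56 CPM in MEF, and none was called, though Ldha was called higher at the same sum (1.07) and Ldha and Pkm after quantile normalization (1.50 and 1.10). In the nuclear genes of the respiratory chain, 40 of 43 tested members were not called, 1 was higher and 2 were lower (median 0.19). In 23 of the 43 the 95% interval lay within 0.5 of no difference, against 14.4% of all tested genes. Ndufv1 was the member called higher (1.51 ± 0.052), and Ndufa2 (-1.07 ± 0.10) and Atp5d (-1.06 ± 0.092) were called lower. This too leaned on the scaling, since at the same sum 11 members were called higher and 0 lower, and with the P4 and P6 rods 1 higher and 5 lower. The 13 genes of the mitochondrial genome were all below MEF on the deposited scale, by 0.60 to 1.33 and 8 were called lower, but 0 were called at the same sum and 0 after quantile normalization. Without 1 library the count fell to 4 (MEF 1) or 3 (P5 rod 3), or rose to 9 (MEF 2, MEF 3 or P5 rod 2) or 11 (P5 rod 1). With the P4 and P6 rods it was 1. Mitochondrially encoded genes took 3.07 to 3.72% of the CPM of an MEF library and 1.96 to 2.57% of a P5 rod library. Beyond Atp1b1 and Atp1b2, the phosphagen and ion pump list held Slc12a5, the chloride extruder of neurons (6.23 ± 0.13), Ckmt1 (5.02 ± 0.087) and Slc8a3 (3.63 ± 0.13) among 8 members called higher, and Atp1b3 (-3.21 ± 0.060) among 8 called lower, of 22 (median -0.28, 0.26 at the same sum). These counts were not far from the shares of all tested genes (24.5% higher and 30.5% lower).

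Cholesterol and lipid synthesis genes rose in 16 and fell in 4 of 33 tested members (median 0.97). Elovl2 and Elovl4, which lengthen the very long fatty acids of disc membranes, rose by 6.51 ± 0.076 and 4.67 ± 0.082, and Elovl2 was at 110.4, 109 and 107 CPM in P5 rods against 0.204, 0.191 and 0.206 CPM in MEF. Dhcr7 (3.10 ± 0.099), Lss (2.28 ± 0.17) and Pmvk (2.23 ± 0.068) of the sterol pathway rose, and Scd1 (-3.36 ± 0.083), Elovl1 (-2.70 ± 0.061) and Elovl5 (-1.75 ± 0.076) fell. The count depended on the rods used: with the P4 and P6 rods of the older series 4 members were called higher and 7 lower of 33, at a median of -0.33.

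The secretory pathway, which a matrix-producing cell loads heavily, was lower in P5 rods in 26 of 33 tested members, with 0 higher (median -1.64). Kdelr3, a receptor that returns chaperones to the endoplasmic reticulum, was at 119, 117 and 114 CPM in MEF against 0.441, 0.412 and 0.479 CPM in P5 rods (-6.35 ± 0.075). The factors Creb3l2 (-4.64 ± 0.16) and Creb3l1 (-4.23 ± 0.079), the disulfide isomerases Pdia5 (-4.34 ± 0.077) and P4hb (-3.05 ± 0.033), and Ckap4 (-3.51 ± 0.045) fell as well. The stress factors Atf4 (0.74 ± 0.041), Ddit3 (-0.12 ± 0.071) and Atf6 (-0.15 ± 0.042) were not called, but Atf4 was called higher at the same sum (1.20) and after quantile normalization (1.25), and the lower calls of the list were then 22 under either. In the lysosome list 22 of 29 tested members were lower and 0 higher (median -2.92), among them Ctsz (-4.59 ± 0.063), Grn (-3.96 ± 0.061), Cd63 (-3.94 ± 0.043), Ctsb (-3.73 ± 0.034) and Npc2 (-3.73 ± 0.042). Macrophages are rich in lysosomes, and their markers were higher in the same MEF libraries, as given above. Of 30 tested antioxidant genes 21 were lower and 1, Sod2, higher (1.11 ± 0.060), and the falls were led by Gpx8 (-6.03 ± 0.079), Gpx3 (-5.24 ± 0.12), Hmox1 (-4.64 ± 0.052), Gpx7 (-4.09 ± 0.14), Prdx6 (-3.97 ± 0.059) and Nqo1 (-3.72 ± 0.091).

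Genes of cell death fell in 19 and rose in 6 of 32 tested members (median -1.68). Casp8, the initiator caspase of death receptors, was at 49.2, 48.2 and 43.9 CPM in MEF against 0.240, 0.0997 and 0.125 CPM in P5 rods (-5.38 ± 0.095). The necroptosis kinase Ripk3 (-6.00 ± 0.082), the death receptor Fas (-4.32 ± 0.089) and Casp12 of the endoplasmic reticulum (-3.80 ± 0.10) fell too. Pmaip1, the p53 target Noxa, fell by 6.32 ± 0.085 and Bak1 fell by 3.71 ± 0.096. The BH3-only genes Hrk (3.41 ± 0.092), Bmf (2.52 ± 0.20) and Bcl2l11 (1.73 ± 0.075) rose, with Casp2 (1.18 ± 0.065) and the caspase inhibitors Birc2 (1.40 ± 0.068) and Xiap (1.04 ± 0.091). Of 28 tested interferon-stimulated and class I genes 11 were lower, 6 higher and 11 not called (median -0.44). These counts were not far from the shares of all tested genes (30.5% lower and 24.5% higher). At the same sum 9 were lower and 6 higher (median -0.030). B2m, the light chain of class I molecules, was at 416, 398 and 394 CPM in MEF against 7.27, 7.54 and 8.31 CPM in P5 rods (-5.54 ± 0.060), and Ifi35 (-3.29 ± 0.12), Bst2 (-2.53 ± 0.098) and Tap1 (-2.35 ± 0.15) were lower too. Usp18 (2.95 ± 0.11), Stat2 (2.73 ± 0.055), Irf9 (1.65 ± 0.093), Irf7 (1.39 ± 0.14) and Oasl2 (1.29 ± 0.15) were among the higher. Usp18 was at 14.2, 17.0 and 17.2 CPM in P5 rods against 1.24, 1.35 and 1.05 CPM in MEF, but at 0.122 to 0.269 CPM in the P4 and 0.134 to 0.452 CPM in the P6 rods of the older series, with which 1 member was called higher and 20 lower of 26. Usp18 (-0.83), Irf9 (-1.10), Irf7 (-0.085) and Oasl2 (-0.43) lay below MEF there, so these rises too were not seen with those rods.

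Genes often taken as constant were called about as often as other genes. Of 16 tested housekeeping genes 8 were called lower, 2 higher and 6 not (median -0.98), so 10 were called in all, against 55.0% of all tested genes. Actb, β-actin, was at 2933, 3154 and 3181 CPM in MEF against 459.7, 485 and 569.8 CPM in P5 rods (-2.62 ± 0.073), and Gapdh at 2018, 2106 and 2198 against 842, 798 and 860.3 CPM (-1.34 ± 0.044). Tbp (1.23 ± 0.10) and Polr2a (1.40 ± 0.035) rose, and Ywhaz (-0.15 ± 0.040), Tfrc (0.16 ± 0.10) and Pgk1 (-0.26 ± 0.034) were not called. At the same sum 6 of these genes were lower and 3 higher, and Gapdh was not called (-0.88), and after quantile normalization 5 were lower and 3 higher. Ribosomal protein genes fell in 28 of 33 tested members (median -1.84), and in 27 at the same sum and 24 after quantile normalization. Rplp0 was at 1964, 2032 and 2079 CPM in MEF against 226, 233 and 268 CPM in P5 rods (-3.06 ± 0.061), and the member that rose was Rpl3l, a muscle form of Rpl3, at a mean of 2.35 CPM in P5 rods. These genes have near-identical pseudogenes, so single values are uncertain. On the deposited scale proteasome genes were below MEF in all 30 tested members, by 0.15 to 1.66, and 9 were called lower, about the share of all tested genes (30.5%), but 1 at the same sum, 4 after quantile normalization and 17 with the P4 and P6 rods.

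**Figure D5:**
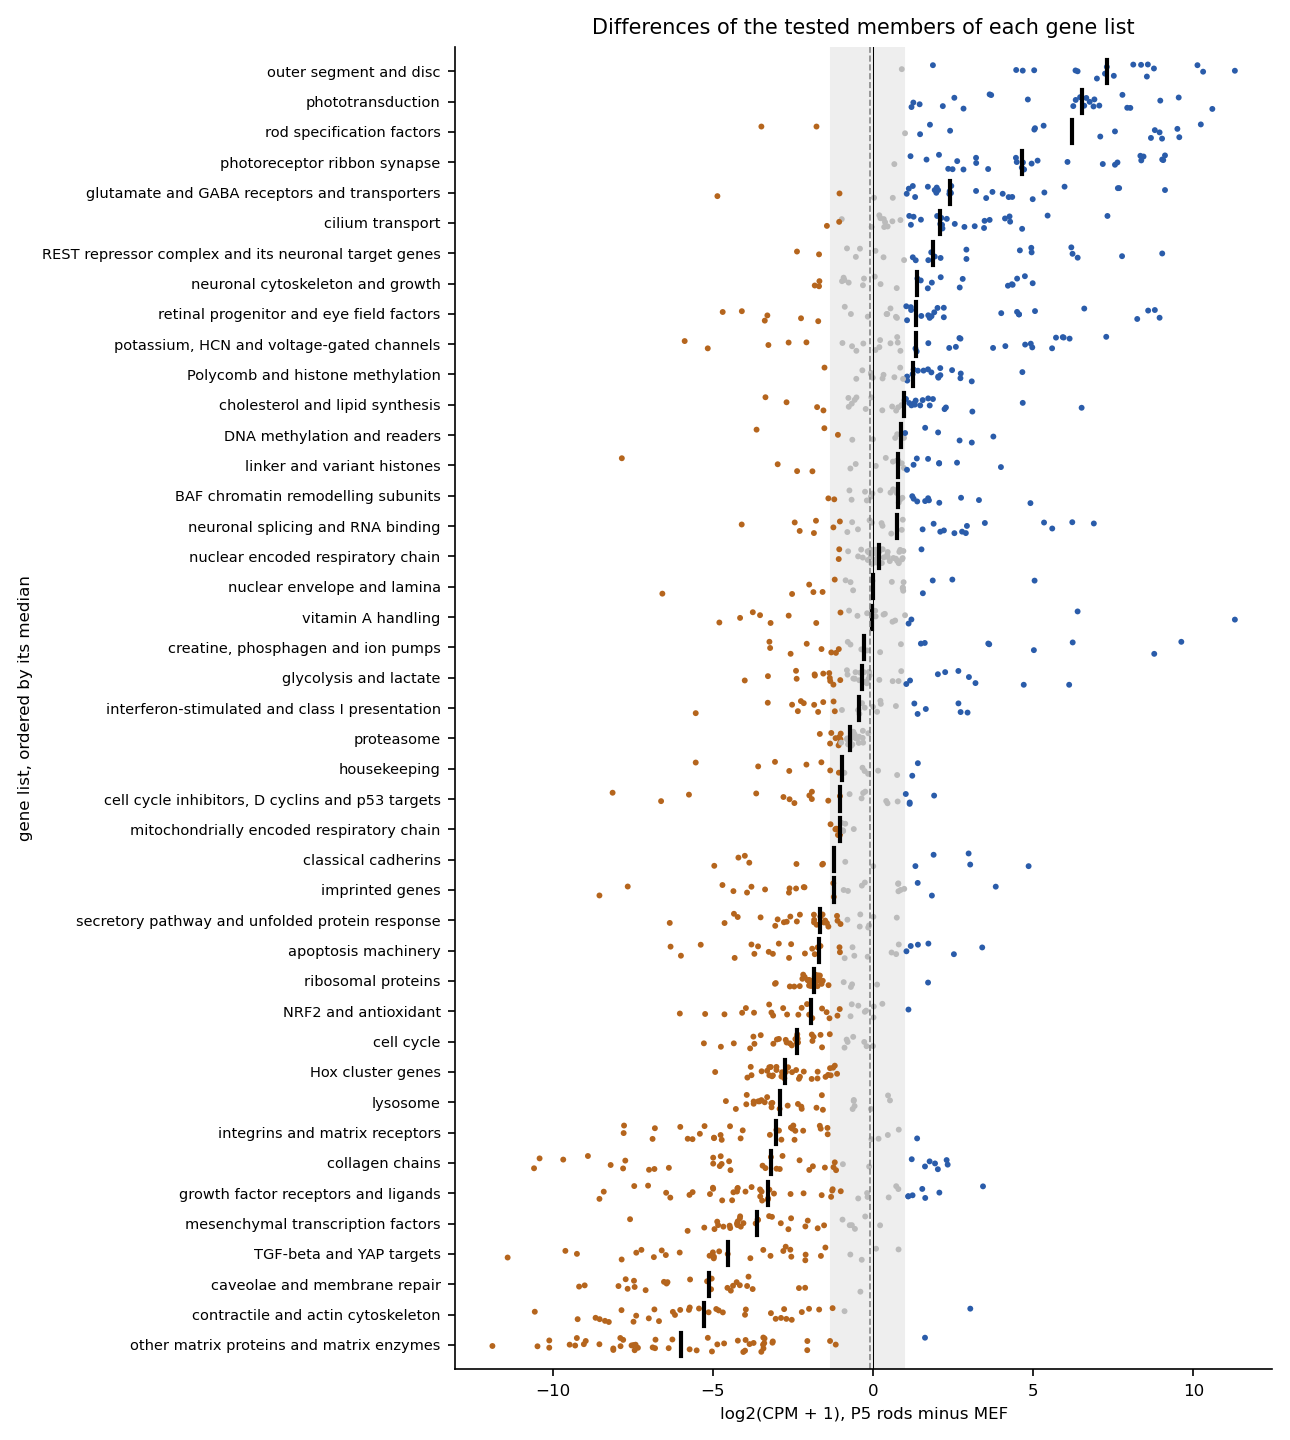
Difference in log2(CPM + 1), P5 rods minus MEF (horizontal axis), of every tested member of 43 gene lists (vertical axis, ordered by median), with blue points called higher, brown called lower and grey not called; black bars are list medians, the dashed line is the median of all tested genes (-0.09) and the grey band runs from their 25th to their 75th percentile (-1.33 to 0.97). Outer segment genes (median 7.30) and matrix genes (median -6.00) mark the ends, and nuclear genes of the respiratory chain (median 0.19) cluster near 0.

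Some genes were near absent in the libraries of one group and well present in those of the other. Under 1 CPM in all 3 MEF libraries and at 10 CPM or more in all 3 P5 rod libraries were 282 genes, and the reverse held for 422. These counts are descriptions of level and carry no test. Among the 282 were the rod factors Crx, Nrl, Nr2e3, Otx2 and Neurod1 and the synaptic genes Slc17a7 and Snap25, and among the 422 were Bgn, Lox, Gsn, Prrx1, Pdgfrb, Cdkn2b and Kdelr3. The 282 also held Grm6, Isl1 and Gabrr1, known from bipolar cells, at means of 215, 116 and 39.8 CPM in P5 rods. The part of other cell types in either count was not tested. With the P4 and P6 rods of the older series the counts were 229 and 284. With all libraries set to the same sum they were 354 and 336, so which set was larger depended on the scaling.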

How the data were processed

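RNA sequencing values came from the table of the whole series that the authors deposited, with 33 library columns for 36 listed samples; the P3 rods have no column in it and were not analysed here. Its values are deposited as normalized CPM, a signal of read abundance scaled between libraries, and the sources used here do not give the scaling method. Per the submitters' processing notes kallisto was used, but its version and index, the genome build and the strand setting were not given in the sources used here. Whole reads could not be recovered from the values, so the depth is unknown, no count model was used, and no counting interval can be given. No value column of the table was left unused for want of a sample (0 such columns).

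Genes with at least 1 CPM in at least 3 of the 6 libraries were tested with limma 3.58.1 in R 4.3.3 on log2(CPM + 1), with a pseudocount of 1, 3 P5 rod against 3 MEF libraries, a mean-variance trend and no covariate, and p-values adjusted by Benjamini-Hochberg over all genes tested. A gene was called at an adjusted p under 0.05 and a difference of at least 1, and the script was tested on simulated data. All adjusted p-values given are from this limma fit. Alternatives were other pseudocounts, filters and scalings, a replicate block, all groups in 1 fit, no trend, the P4 and P6 rods of the older series, and leaving out each library. Named genes are 5 fixed genes (Nrl, Crx, Nr2e3, Col1a1, Thy1), the 12 that rose and the 12 that fell most, if their mean reached 10 CPM in either group, and, per list, up to 6 called members with the largest change, any called member against the majority, and paralog pairs. Genes named as not called, and called members beyond these, were chosen after their values were seen. The comparison and the gene lists were chosen with earlier results of these data known. Of 15289 genes, 99.12% matched GENCODE M21 by identifier, 101 symbols stand at several identifiers, and genes with near-identical copies or antisense partners are uncertain. Promoters are from RefSeq, matched by symbol for 10749 of 13993 tested symbols. A few of the genes this rule selects are not reported here. Figures were drawn with matplotlib 3.10.9.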

Additional observations from a re-analysis of the deposited data

How the results depend on the processing

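The counts of 3449 genes higher and 4295 lower, and of 282 and 422 genes near absent in one group, stayed within 1.5 times under every alternative run for them. Higher and lower calls were 3796 and 4567 with a pseudocount of 0.1, 2468 and 3290 with 5, 2897 and 3660 at 5 CPM, 4085 and 3812 after quantile normalization, which shifted the median difference by 0.19, and 3781 and 4080 with the P4 and P6 rods, which share the MEF libraries. Leaving out each library gave 3447 to 3489 higher, 4271 to 4306 lower, 1811 to 1914 with a narrow interval, and 285 to 315 and 429 to 451 near absent in MEF and in rods. The 2031 genes with a narrow interval became 3482 with a pseudocount of 5, which shrinks differences by its construction, and 783 with all groups in 1 fit; the cause of the second was not tested. With the replicate number as a replicate block the counts were 3449, 4295 and 2149 narrow, and no named gene lost its call. The deviations of same-numbered libraries from their group means correlated at 0.18, -0.02 and 0.16, and not every library correlated best with its own number, so the samples share only a number. Over 334 named genes and 17 alternatives, 5546 of 5663 results kept direction and side of the threshold, 82 lost a call, 20 gained one and 15 changed sign. The changes of sign were Pkm at 1.10 after quantile normalization and, with the P4 and P6 rods, Agrn at -0.35, Col20a1 at -1.06, Fgf2 at -4.50, Irf7 at -0.085, Irf9 at -1.10, Mki67 at 0.60, Myocd at -0.42, Oasl2 at -0.43, Qk at 0.0062, Rbfox1 at 0.28, Sfrp2 at 0.74, Top2a at 0.44, Usp18 at -0.83 and Vegfa at -0.12; the cause was not tested. The pooled total hides that the alternatives were unlike. With the P4 and P6 rods 282 named genes kept direction and side of the threshold, the fewest of any alternative. There 28 lost a call, 9 gained one and 14 changed sign, and not every lost call is given by gene. The number of 3 libraries a group and the unknown depth limit what can be said of genes near 1 CPM.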

Other observations

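GGAATG, the core letters bound by TEAD factors, the partners of YAP, was in 12.2% of the promoter windows of all tested genes, 17.0% of those of genes lower in P5 rods by over 5 log2 units, 13.1% of those of genes higher by over 5, and 34.2% of 38 windows of the contractile list, sought on both strands. Endothelium markers were low in both groups, at 32.7 to 35.7 CPM in MEF and 45.2 to 47.5 CPM in P5 rods, and stood at 251 to 299 CPM in the P4 and 152 to 253 CPM in the P6 rods of the older series. Retinal progenitor markers were at 323 to 348 CPM in MEF, 460.1 to 501 CPM in the P5 rods, 597 to 753 CPM in the P4 rods and 514 to 685 CPM in the P6 rods. Isl1, known from bipolar, amacrine and ganglion cells, was at 116, 117 and 116 CPM in the P5 rods, 9.72 to 10.1 CPM in the P4 rods and 48.1 to 55.0 CPM in the P6 rods. These levels were not tested against each other.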
